A study of Macaca mulatta with 24 samples.

Results

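Prostaglandins are short-lived lipid signals made from arachidonic acid. The cyclooxygenases PTGS1 and PTGS2 make a common intermediate, terminal synthases turn it into single prostaglandins, and cell surface receptors on epithelial, immune, muscle and nerve cells read them. In the intestine, prostaglandin E is known for its part in mucosal defence, fluid secretion and repair of the epithelium, and its signal ends when the carrier SLCO2A1 brings it into cells and the dehydrogenase HPGD oxidizes it. The genes followed here were 10 members of this pathway: PTGS1, PTGS2, PTGES, PTGES2, PTGIS, PTGDS, PTGER2, PTGER4, HPGD and SLCO2A1. They were chosen by symbol, and every transcript probe on the array that carried one of these symbols was taken. All 10 genes had at least 1 probe, with 18 of the 43603 transcript probes in all, and all 18 passed the filter on low signal. PTGS2 and PTGER4 had 3 probes each, PTGS1, PTGES2, PTGDS and PTGER2 had 2 each, and PTGES, PTGIS, HPGD and SLCO2A1 had 1 each.

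The samples were total RNA of colon from 24 young adult male rhesus macaques, 1 array per animal with no pooling. Irradiated animals received a single uniform total-body dose of cobalt-60 gamma rays, of 6.7 or 7.4 Gy. They were examined 4 days later (4 animals per dose), 7 days later (4 animals per dose) or 12 days later (2 animals per dose). The last day is given as 12 by the sample labels, which were followed, and as 21 by the treatment text. The 4 controls received no irradiation, carried the day 4 label and served every comparison with control, so these comparisons are not independent of each other. About 3 cm of colon was taken and RNA came from whole gut tissue, so each sample mixed cell types of the gut wall. Adjusted p-values set each change against the spread between animals within groups. The question was how the genes that make prostaglandins stood against those that take them up and break them down, over dose and time.

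Each level below is a log2 signal after subtraction of its array's 75th percentile, so 0 is the level of a fairly bright probe and each unit is a doubling. Levels describe 1 probe over samples and do not rank different genes. A gene was said to have risen or fallen where limma gave an adjusted p under 0.05 and a change of at least 2-fold. For genes with several probes, the brightest probe stands first and the others are named where they add something. On each array 66.6% to 84.8% of probes were well above background, and arrays of the same group correlated at 0.958 to 0.987. Array position and scan day differed between groups. All 4 control arrays sat in the first position of their slides and were split over both scan days. All 4 arrays of day 4 after 7.4 Gy sat in the second position and were scanned on the second scan day. The arrays of day 4 after 6.7 Gy were split over these positions and scan days. Replicates 1 and 2 sat in the first position and were scanned on the second scan day. Replicates 3 and 4 sat in the second position and were scanned on the first scan day. Within that group, position and scan day thus changed together. On day 4, fits with position as a block rest on that split. Arrays of day 7 and day 12 sat in later positions.

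On day 4 the breakdown enzyme HPGD fell after both doses, and the inducible cyclooxygenase PTGS2 rose after 7.4 Gy. On days 7 and 12 none of the 10 genes differed from control by the call. After 6.7 Gy on day 4, 1 of 10 members was called, against 4.25% of the 13440 named genes tested. After 7.4 Gy on day 4, 2 of 10 were called, against 8.23%. The median change of the 10 members was 0.25 on the log2 scale at 6.7 Gy, with -0.04 over all genes, and 0.24 at 7.4 Gy, with -0.02 over all genes.

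**Figure D1:**
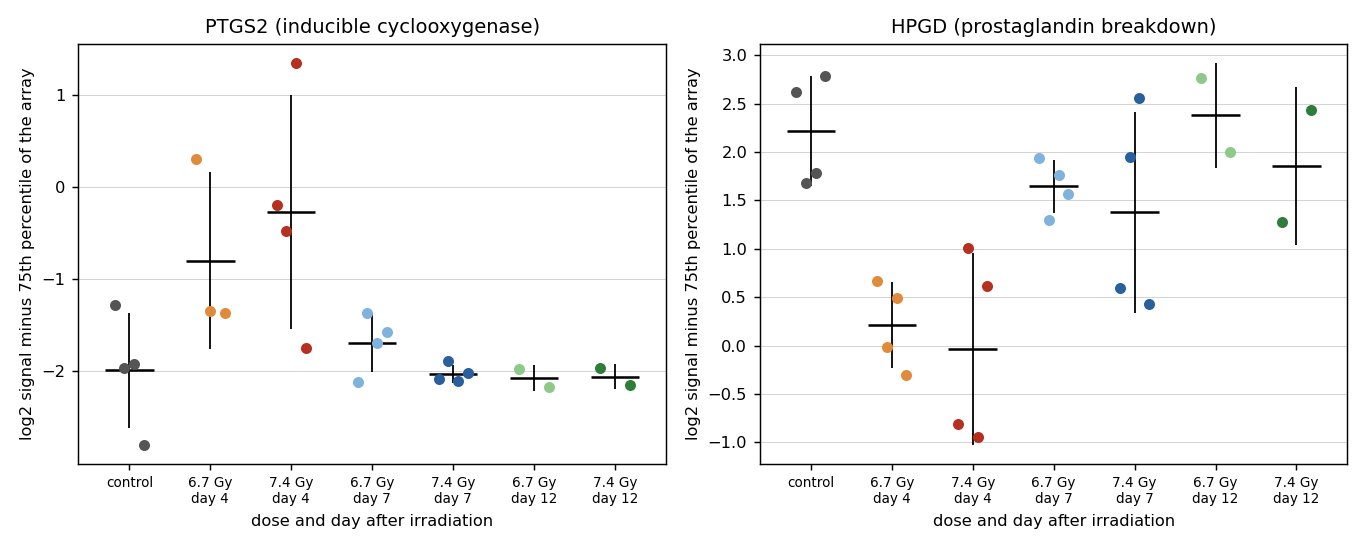
Levels of PTGS2 and HPGD on each array, as log2 signal with the array's 75th percentile subtracted, for control and the 6 dose-by-day groups. Points are animals, short lines are group means and bars are 1 SD; the 8 day 4 arrays hold the lowest HPGD levels apart from 2 of the arrays of day 7 after 7.4 Gy, and PTGS2 on the 7 day 4 arrays that measured it spread from -1.75 to 1.34.

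PTGS1 is the cyclooxygenase that most tissues make at a steady level. In the controls its levels were 1.88, 1.72, 2.04 and 1.95. On day 4 after 6.7 Gy they were 2.33, 2.24, 2.20 and 1.12, so 3 arrays stood above every control and replicate 4 stood below. Those of day 4 after 7.4 Gy were 2.86, 2.48, 2.61 and 2.35. All 4 of these arrays were higher than all 4 controls, with means of 2.57 ± 0.22 (SD, n = 4) and 1.90 ± 0.13 (SD, n = 4). The difference for PTGS1 was 0.68 (95% interval 0.23 to 1.12, adjusted p = 0.031 in limma), which passed the p threshold and stayed under 2-fold. In this comparison 7632 of 38220 probes passed that threshold at any fold. With array position as a block the PTGS1 difference was 1.302 (adjusted p = 0.025 in limma) and was called. That fit took the gap between positions from the 6.7 Gy day 4 arrays alone. Replicate 4 of that group, at 1.12, sat in the second position, so the larger value depends on it. Without the block, a second, dimmer PTGS1 probe differed by 0.70 after 7.4 Gy with an adjusted p of 0.13. After 6.7 Gy the difference was 0.08, and on days 7 and 12 the group means of PTGS1 lay between 1.41 and 1.73, below the control mean, with none past the threshold.

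PTGS2 is the cyclooxygenase that cells switch on after injury and inflammatory signals. Its brightest probe gave -1.28, -1.96, -1.92 and -2.79 in the controls. At day 4 after 6.7 Gy it gave 0.31, -1.34 and -1.37 on replicates 1, 3 and 4, and the spot on replicate 2 had been marked as an outlier and was left out. On day 4 after 7.4 Gy it gave -0.20, -0.48, 1.34 and -1.75. Replicate 3 of that group was the highest of all 24 arrays, while replicate 4 lay within the control range, so the groups overlapped. PTGS2 rose by 1.72 after 7.4 Gy (95% interval 0.72 to 2.72, 3.29-fold, adjusted p = 0.017 in limma), and each of the 4 arrays was above the control mean. The call was lost under several alternatives. Without 7.4 Gy replicate 3 the change was 1.18 (adjusted p = 0.058), and without control replicate 4 it was 1.45 (adjusted p = 0.060). It was also lost with only the compared groups in the fit (adjusted p = 0.093), by the methods' t-test and within scan day 2 alone (2.09, adjusted p = 0.059). With position and scan day as blocks the call was lost (3.85, adjusted p = 0.091), and with position alone it was kept (3.38, adjusted p = 0.027). The gap between positions came from day 4 after 6.7 Gy alone, with 0.31 in the first position against -1.34 and -1.37 in the second. The larger value thus depends on 1 array in the first position.

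After 6.7 Gy on day 4 the change of PTGS2 was 1.19 (95% interval 0.11 to 2.27, adjusted p = 0.15 in limma, 3 arrays against 4) and was not called. The array left out bears on this value, since with outlier spots kept it was 1.79 with an adjusted p of 0.052. The other PTGS2 probes measured replicate 2 without an outlier mark. The second probe gave -2.65, -0.83, -3.81 and -4.10 after 6.7 Gy and -2.49, -3.20, -1.43 and -4.03 after 7.4 Gy. Its controls were -4.05, -4.82, -4.10 and -4.59, so all 4 arrays after 7.4 Gy lay above all controls. It differed by 1.54 after 6.7 Gy (95% interval 0.42 to 2.66, adjusted p = 0.074 in limma) and rose by 1.60 after 7.4 Gy (95% interval 0.48 to 2.73, adjusted p = 0.041 in limma). In the controls the third PTGS2 probe never stood well above background. It gave -4.76, -2.88, -6.69 and -6.42 after 6.7 Gy and -5.03, -5.66, -3.67 and -6.67 after 7.4 Gy. Measured against the lowest signal that counted as well above background, its mean was at least 1.94-fold higher after 6.7 Gy and at least 1.85-fold higher after 7.4 Gy. Neither was called (adjusted p = 0.15 and 0.13 in limma). Replicates 3 and 4 after 6.7 Gy and replicate 4 after 7.4 Gy lay within the control range of -6.94 to -6.16, so no smallest rise is shown.

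**Figure D2:**
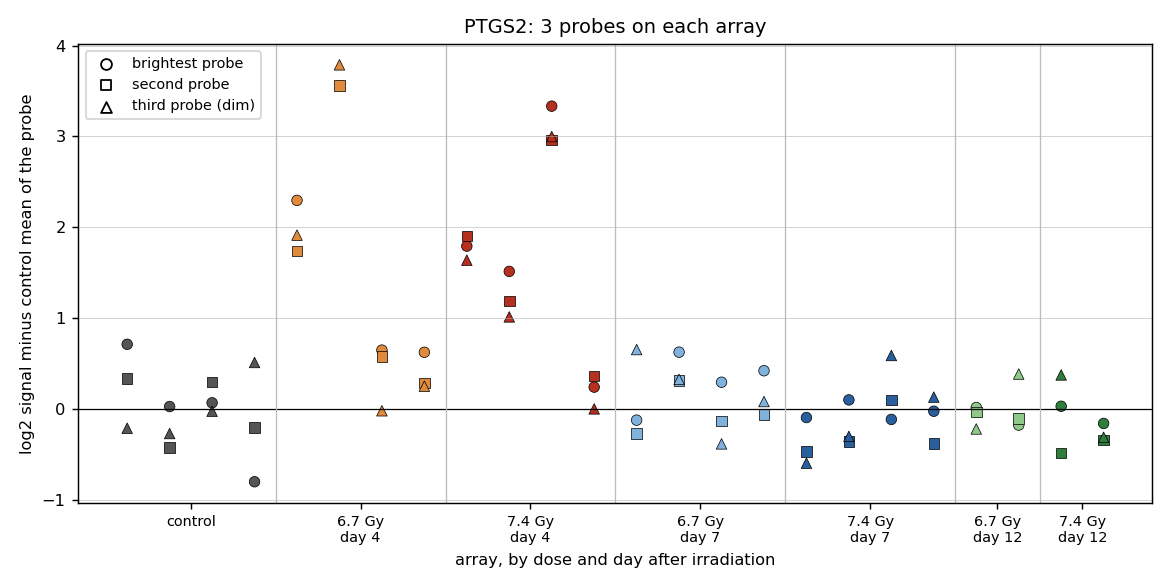
Level of each of the 3 PTGS2 probes on each array minus the control mean of that probe, on the log2 scale, by dose and day. On day 4 the values ran from -0.02 to 3.79 over the 3 probes, with 7.4 Gy replicate 3 the highest of its group on each probe, and on all other arrays they ran from -0.80 to 0.71.

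On days 7 and 12 the levels of PTGS2 lay within the control range. On day 7 they were -2.11, -1.36, -1.70 and -1.57 after 6.7 Gy and -2.08, -1.89, -2.11 and -2.02 after 7.4 Gy. On day 12 they were -1.97 and -2.17 after 6.7 Gy and -1.96 and -2.15 after 7.4 Gy. The 4 arrays of day 7 after 7.4 Gy differed from each other by less than the controls did. With both doses in 1 comparison, PTGS2 fell by 1.32 from day 4 to day 7 (95% interval -2.06 to -0.58, adjusted p = 0.010 in limma) and by 1.53 from day 4 to day 12 (95% interval -2.42 to -0.64, adjusted p = 0.014). The second probe changed by -1.73 and -1.81 in the same comparisons (adjusted p = 0.0027 and 0.0084). These comparisons do not use the controls.

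Of the 4 terminal synthases among the members, none was called at its brightest probe in any comparison, and PTGDS was called at its other probe. PTGES, the inducible prostaglandin E synthase that often works with PTGS2, had a control mean of -1.16 ± 0.10 (SD, n = 4). On day 4 its means were -1.10 ± 0.05 after 6.7 Gy and -1.45 ± 0.25 after 7.4 Gy (n = 4 each). The change after 7.4 Gy was -0.29 with an adjusted p of 0.16 in limma, so the day 4 rise of PTGS2 had no called rise of PTGES beside it. PTGES on days 7 and 12 had means from -1.24 to -1.20.

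PTGES2, a second prostaglandin E synthase, gave -0.41, -0.22, -0.31 and -0.36 in the controls and 0.19, 0.23, 0.10 and 0.24 on day 4 after 6.7 Gy. The groups did not overlap, the difference was 0.51 (95% interval 0.17 to 0.86) and its adjusted p in limma was 0.054, so it was not called. After 7.4 Gy PTGES2 was at -0.14, -0.19, -0.18 and 0.23, also above all controls, with a difference of 0.26 (adjusted p = 0.29). A second PTGES2 probe differed by 0.28 (adjusted p = 0.41) after 6.7 Gy and 0.08 (adjusted p = 0.83) after 7.4 Gy.

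PTGDS, a prostaglandin D synthase made by stromal and other cells, gave 3.95, 3.47, 4.01 and 3.22 in the controls and 4.05, 5.09, 4.40 and 3.95 on day 4 after 6.7 Gy. Replicate 2 was the highest, and the groups overlapped. The difference at this probe was 0.71 (95% interval 0.16 to 1.25, adjusted p = 0.092 in limma). The other PTGDS probe gave 2.26, 1.85, 2.71 and 1.36 in the controls and 2.86, 3.94, 3.13 and 2.52 on day 4 after 6.7 Gy. There the rise was 1.07 (95% interval 0.41 to 1.72, adjusted p = 0.039), so the 2 probes of PTGDS lay on different sides of the call while both pointed upward. Counted by probe, 2 of 18 were called after 6.7 Gy on day 4, against 3.61% of all probes, and 3 of 18 after 7.4 Gy, against 7.04%. From day 4 to day 7, PTGDS changed by -0.51 (adjusted p = 0.047), under 2-fold.

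PTGIS, which makes prostacyclin in vessel walls and muscle, was dim throughout, with group means from -5.88 to -4.95. It was well above background on 2 of 4 control arrays, 1 of 4 on day 4 after 6.7 Gy and 4 of 4 on day 4 after 7.4 Gy. No PTGIS difference from control was called in the reported fit. After 7.4 Gy on day 4 the difference was 0.54 there, and it was called with array position as a block (2.25, adjusted p = 0.018 in limma) and with position and scan day together (2.995, adjusted p = 0.045). Both of these fits rest on the split of the 6.7 Gy day 4 arrays over positions.

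PTGER2 and PTGER4 encode the prostaglandin E receptors that raise cyclic AMP. PTGER2 had a control mean of -2.07 ± 0.25 and day 4 means of -1.75 ± 0.55 after 6.7 Gy and -2.19 ± 0.66 after 7.4 Gy (SD, n = 4 each), with group means of -1.84 to -1.45 on days 7 and 12. PTGER4 had a control mean of -0.50 ± 0.72 and group means from -0.63 to -0.09 after irradiation. One control, replicate 4, held PTGER4 at -1.58, while the other controls lay between -0.21 and -0.08. On day 4 a second PTGER2 probe differed from control by 0.44 and 0.37 after the lower and the higher dose, a second PTGER4 probe by 0.28 and 0.45, and the dimmest PTGER4 probe, near background, by -0.31 and -0.38. No probe of either receptor was called in any comparison.

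**Figure D3:**
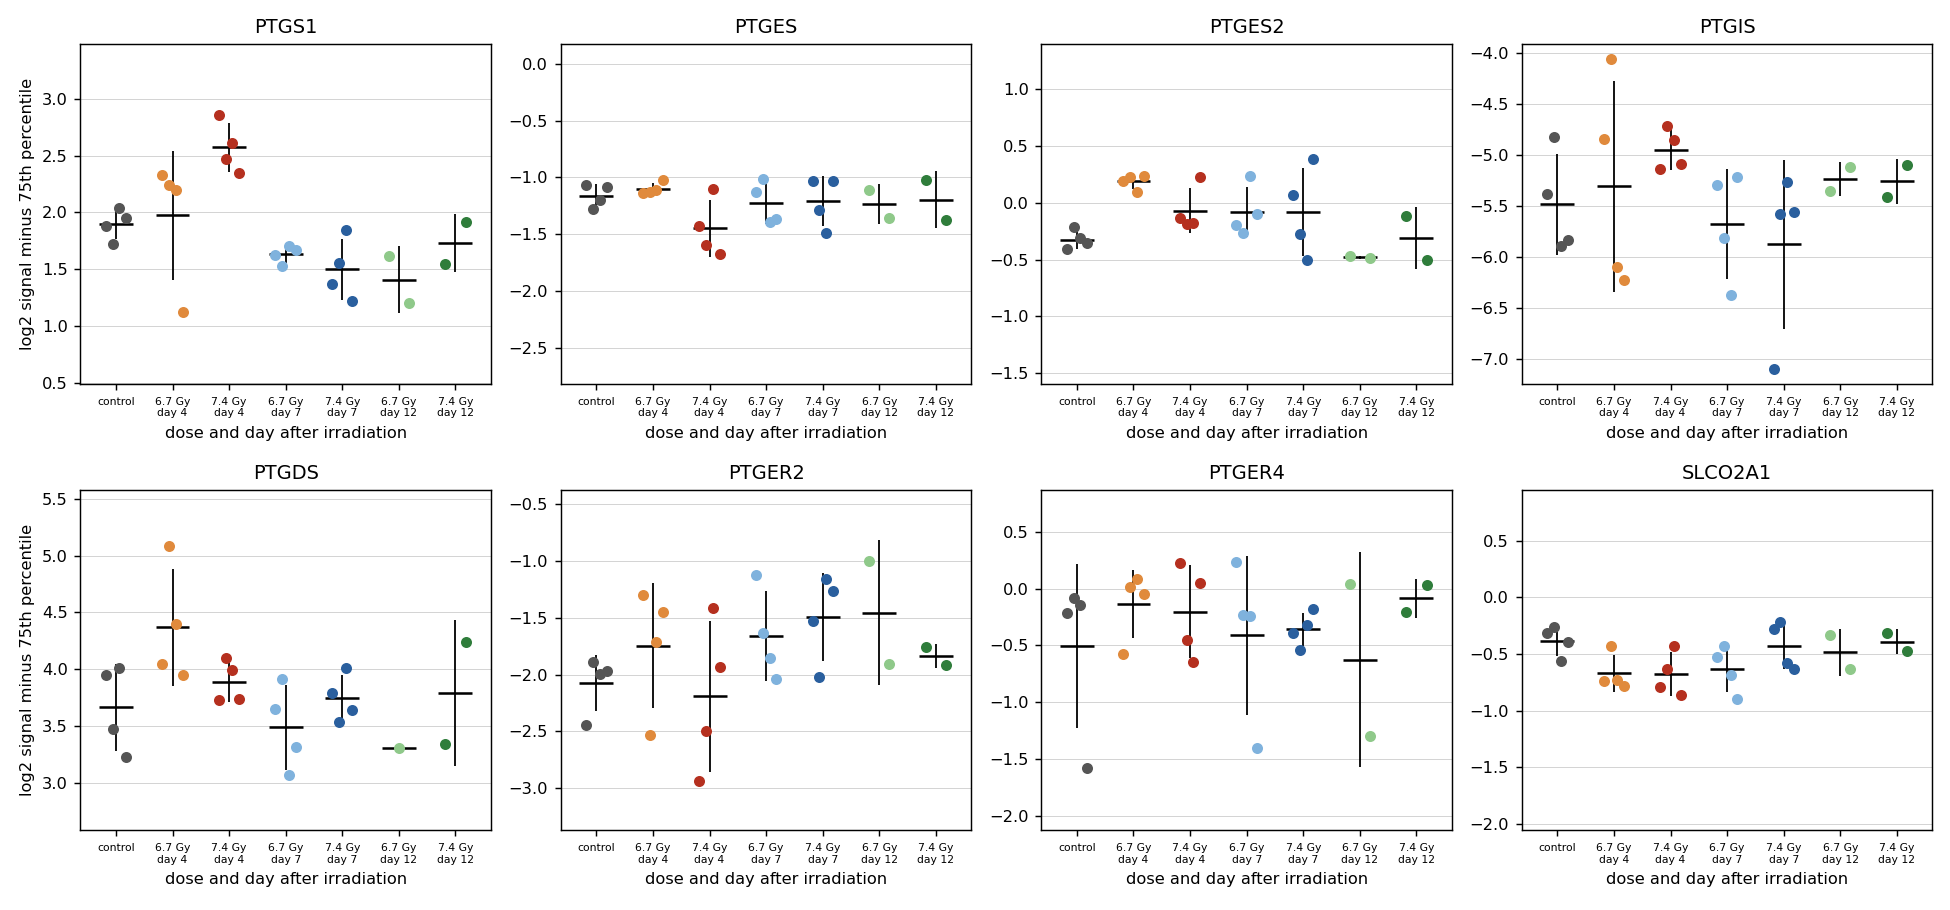
Levels of the 8 members other than PTGS2 and HPGD on each array, as log2 signal with the array's 75th percentile subtracted, with group means and 1 SD. PTGS1 on day 4 after 7.4 Gy (2.35 to 2.86) and PTGES2 on day 4 after 6.7 Gy (0.10 to 0.24) lie above all controls, and the receptors PTGER2 and PTGER4 overlap control in every group.

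HPGD, the enzyme that inactivates prostaglandins, had the largest change from control among the 10 members on day 4 at both doses. Its levels in the controls were 2.62, 1.68, 1.79 and 2.79. On day 4 they were 0.67, -0.01, 0.49 and -0.30 after 6.7 Gy, and -0.81, 1.01, -0.94 and 0.61 after 7.4 Gy. Every day 4 array lay below every control. HPGD fell by 2.01 after 6.7 Gy (95% interval -3.02 to -0.995, 4.02-fold, adjusted p = 0.014 in limma). It fell by 2.25 after 7.4 Gy (95% interval -3.26 to -1.24, 4.76-fold, adjusted p = 0.0033 in limma). Fitted with array position as a block, the changes were -1.89 and -2.02 and were no longer called (adjusted p = 0.073 and 0.16). Within the second scan day alone they were -1.96 (adjusted p = 0.15) and -2.32 (adjusted p = 0.036).

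On day 7 HPGD was 1.94, 1.30, 1.77 and 1.57 after 6.7 Gy and 0.59, 1.94, 2.55 and 0.43 after 7.4 Gy. The 7.4 Gy group was split, with replicates 1 and 4 near the day 4 levels and replicates 2 and 3 within the control range. Neither group was called (-0.57, 95% interval -1.58 to 0.44, and -0.84, 95% interval -1.85 to 0.17). On day 12 HPGD was 2.76 and 1.998 after 6.7 Gy and 1.28 and 2.43 after 7.4 Gy, above every day 4 array. From day 4 HPGD rose by 1.42 to day 7 (95% interval 0.71 to 2.14, adjusted p = 0.0052 in limma) and by 2.03 to day 12 (95% interval 1.15 to 2.90, adjusted p = 0.0019).

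SLCO2A1, the carrier that takes prostaglandins into cells, had a control mean of -0.38 ± 0.13 (SD, n = 4). Its day 4 means were -0.67 ± 0.16 after 6.7 Gy and -0.68 ± 0.19 after 7.4 Gy (n = 4 each), differences of -0.29 in both with adjusted p of 0.21 and 0.15 in limma. Over the alternatives other than leaving out replicates, the 7.4 Gy difference ran from -0.40 to 0.25 and was never called. The fall of HPGD had no called fall of SLCO2A1 beside it.

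Set side by side on each array as changes from the control mean, PTGS2 minus HPGD lay between 1.84 and 6.49 on the 7 day 4 arrays that measured both. It lay between -1.37 and 0.56 on the controls, -0.45 and 1.77 on day 7, and -0.53 and 0.97 on day 12. Replicate 3 of day 4 after 7.4 Gy had both the highest PTGS2 level and the lowest HPGD level of all arrays.

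**Figure D4:**
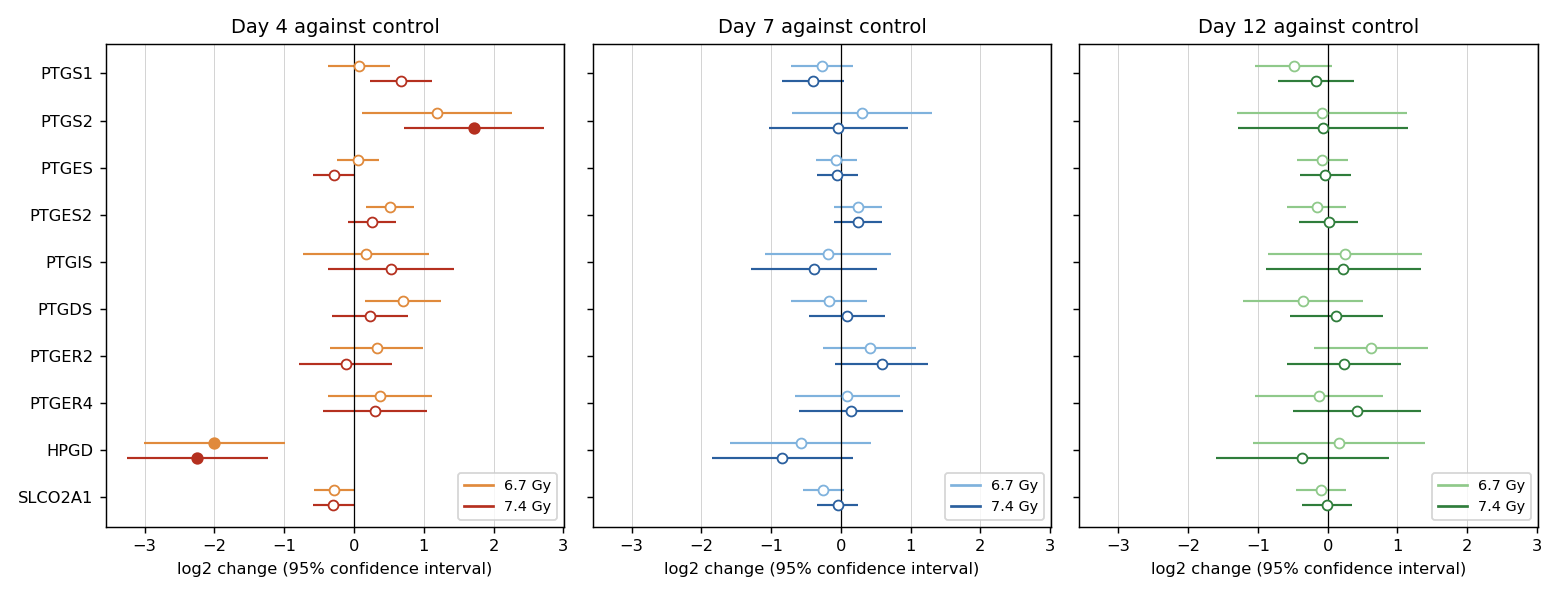
Change of each of the 10 members from control on each of the 3 days and at both doses, on the log2 scale with 95% intervals, 1 probe per gene. Filled points passed an adjusted p of 0.05 and 2-fold: HPGD on day 4 after both doses (-2.01 and -2.25) and PTGS2 on day 4 after 7.4 Gy (1.72).

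On day 7, 0 of 10 members were called at either dose by limma, against 0.387% of genes after 6.7 Gy and 0.499% after 7.4 Gy. On day 12, 0 of 10 were called at either dose, against 0.0149% after each dose. In all 4 of these comparisons, 0 members had an unadjusted p under 0.05 in limma, and the methods' t-test, a plain test that the study names, called 0 as well. Groups of 2 animals on day 12 leave wide intervals.

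The 2 doses did not separate the members. On each of the 3 days, 0 of 10 differed between 7.4 and 6.7 Gy by limma, against 0% of all genes, and the methods' t-test called 0 after adjustment. On day 4, 2 members had an unadjusted p under 0.05: PTGS1 was 0.60 higher after 7.4 Gy (95% interval 0.15 to 1.05, unadjusted p = 0.011, adjusted p = 0.64 in limma, with all 4 arrays above those of 6.7 Gy) and PTGES differed by -0.35 (unadjusted p = 0.024 in limma). On days 7 and 12 there were 0. For PTGS2 on day 4 the difference between doses was 0.53 (95% interval -0.55 to 1.61), and for HPGD it was -0.24 (95% interval -1.25 to 0.77). So the call of PTGS2 after 7.4 Gy and not after 6.7 Gy is not a shown difference between doses.

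Between days, with both doses together, 2 of 10 members were called from day 4 to day 7, against 5.04% of genes, and 2 of 10 from day 4 to day 12, against 7.64%. These were PTGS2 and HPGD in both, in opposite directions. PTGS1 also passed the p threshold, with changes of -0.71 (adjusted p = 0.0022 in limma) to day 7 and -0.70 (adjusted p = 0.0096) to day 12, both under 2-fold. PTGES2 did so to day 12 only, with -0.46 (adjusted p = 0.025). At any fold, 9925 of 38220 probes passed the p threshold to day 7 and 9358 of 38200 to day 12. From day 7 to day 12, 0 of 10 were called by limma, against 0.134%, and 1 (PTGES2, -0.32) had an unadjusted p under 0.05.

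HPGD is made by the mature surface epithelium of the colon, so a list of 11 surface colonocyte genes that does not hold HPGD was set beside it. Of the 10 genes measured, 6 were lower on day 4 after 6.7 Gy and 8 after 7.4 Gy, with none higher and median changes of -2.24 and -3.90. Their summed signal, in units of the 75th percentile, was 496 to 795 in the controls, 122 to 307 on day 4 after 6.7 Gy and 47.0 to 248 on day 4 after 7.4 Gy. The 10 arrays with sums of 47.0 to 307 had HPGD levels of -0.94 to 1.01, and the 14 arrays with sums of 414 to 795 had HPGD levels of 1.28 to 2.79. The cut between these sets of arrays was chosen after seeing the values. The lower 10 were all 8 day 4 arrays and replicates 1 and 4 of day 7 after 7.4 Gy, the 2 arrays of that group in which HPGD was low. In pieces of whole tissue, fewer cells of a type and less RNA per cell cannot be told apart. A list of 8 general epithelium genes, 7 of them measured, had 1 lower on day 4 after 6.7 Gy and 2 after 7.4 Gy, with none higher. Its median changes were -0.64 and -0.77. Its sums were 280 to 338 in the controls, 148 to 272 on day 4 after 6.7 Gy and 168 to 271 after 7.4 Gy. On day 7 after 7.4 Gy they were 389, 339, 218 and 399, so replicates 1 and 4, low in HPGD, were highest. The part of these lists in the HPGD result was not tested.

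**Figure D5:**
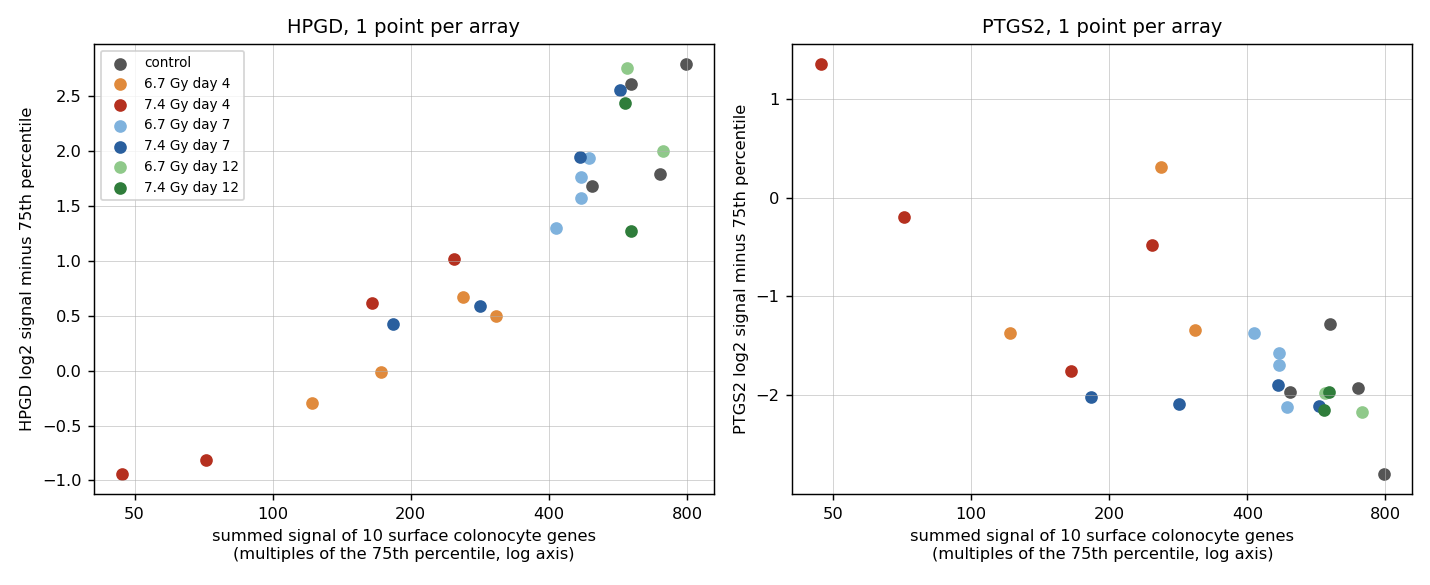
HPGD and PTGS2 levels (log2 signal with the array's 75th percentile subtracted) against the summed signal of 10 surface colonocyte genes on the same array, on a log axis. HPGD is at 1.01 or less on the 10 arrays with sums of 307 or less and at 1.28 or more on the other 14, a cut chosen after seeing the values. PTGS2 is above every control only on day 4 arrays.

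Markers of other cells were read the same way beside PTGS2. Of 5 measured neutrophil genes, 2 were higher on day 4 after 7.4 Gy, S100A8 by 3.61 and S100A9 by 2.23, and none after 6.7 Gy. The summed neutrophil signal was 0.82 to 1.0008 in the controls, 0.93 to 4.45 on day 4 after 6.7 Gy and 1.22 to 10.8 on day 4 after 7.4 Gy. The array with the sum of 10.8 was 7.4 Gy replicate 3, which also held the highest PTGS2. The array with 4.45 was 6.7 Gy replicate 2, the highest on the second PTGS2 probe. Other arrays went the other way. On day 4 after 6.7 Gy, replicate 1 had PTGS2 at 0.31 and a neutrophil sum of 0.93, within the control range. On day 7 after 6.7 Gy, replicate 2 had a sum of 2.78 and PTGS2 at -1.36, within the control range. Of 6 measured monocyte and macrophage genes, 2 were higher on day 4 after 7.4 Gy (FCGR1A and MRC1), and of 7 fibroblast genes, 3 were higher (COL1A2, COL3A1 and COL6A3). Of 5 endothelial genes, 1 was higher (VWF), and the summed endothelial signal was 3.00 to 3.81 in the controls, 3.91 to 5.34 on day 4 after 6.7 Gy and 4.93 to 6.99 on day 4 after 7.4 Gy, above every control. Over all genes 4.24% were called higher after 7.4 Gy on day 4. The summed macrophage signal was 50.2 to 78.7 in the controls and 80.3 to 109.9 on day 4 after 7.4 Gy. The summed fibroblast signal was 111 to 258 in the controls and 247 to 358 on day 4 after 7.4 Gy, so the groups overlapped. Of 4 smooth muscle, 6 mast cell and 4 tuft cell genes measured, 0 were called there. The summed tuft cell signal was 1.86 to 2.83 in the controls and 1.58 to 1.73 on day 4 after 7.4 Gy, below every control. The smooth muscle and mast cell sums overlapped control. The part of these cells in the PTGS2 and PTGS1 values was not tested.

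The genes whose levels followed PTGS2 most closely over the 23 arrays that measured it were NR4A2 (Pearson r = 0.910), IER3 (0.904), PDE4B (0.890), ADAMTS1 (0.876) and NR4A1 (0.867). Those closest to HPGD over 24 arrays were ACSF2 (0.944), CBLC (0.942), VDR (0.938), MPZL3 (0.938) and CDA (0.937). About 9834 genes that were well above background on every array were compared, the arrays share their groups, and these values are a description.

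The wider eicosanoid pathway was read from a list of 43 genes, of which 34 were measured. On day 4 after 6.7 Gy, 2 of the 34 rose and 3 fell, and after 7.4 Gy, 2 rose and 4 fell, with list medians of -0.22 and -0.13. Over all genes, 2.36% rose and 1.89% fell after 6.7 Gy and 4.24% rose and 3.99% fell after 7.4 Gy, with the medians of -0.04 and -0.02 given above. TBXAS1, which makes thromboxane, rose by 1.29 after 6.7 Gy (adjusted p = 0.0048 in limma) and by 1.54 after 7.4 Gy (adjusted p = 0.00045). PLA2G2A, a secreted phospholipase, rose by 1.78 after 6.7 Gy (adjusted p = 0.039) and differed by 0.87 after 7.4 Gy (adjusted p = 0.26). ANXA1, a phospholipid-binding protein known to restrain phospholipase activity, rose by 1.89 after 7.4 Gy (adjusted p = 0.00043, 3 arrays) and differed by 0.96 after 6.7 Gy (adjusted p = 0.038, under 2-fold). The differences between doses were not called for PLA2G2A (-0.91, adjusted p = 0.87) or ANXA1 (0.93, adjusted p = 0.61).

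Among those that fell, CYP4F12, an oxidizing enzyme, changed by -1.41 after 6.7 Gy (adjusted p = 0.0021 in limma) and -2.29 after 7.4 Gy (adjusted p = 1.3e-05). PPARG, a nuclear receptor of colon epithelium that binds fatty acid derivatives, changed by -1.05 (adjusted p = 0.011) and -1.65 (adjusted p = 0.00016). PTGDR, a receptor of prostaglandin D, changed by -1.0003 (adjusted p = 0.036) and -1.60 (adjusted p = 0.001). ALOX5, which makes leukotrienes, changed by -1.11 after 7.4 Gy on day 4 (adjusted p = 0.036) and by -1.63 on day 7 (adjusted p = 0.047), the only call among the 34 on days 7 and 12 against control. From day 4 to day 7 and from day 4 to day 12, CYP4F12 (1.63 and 2.05), PPARG (1.399 and 1.84) and PTGDR (1.65 and 1.86) rose and ANXA1 (-1.46 and -1.50) fell.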

How the data were processed

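RNA was labelled with Cy3 and hybridized to 1-colour Agilent rhesus arrays. The authors read the scans with Feature Extraction 11.0.1.1, which subtracts local background, using a rheMac2 probe layout, and deposited a processed signal per spot, an intensity with no scaling across arrays. A log2 table deposited by the authors, scaled per array and centred per probe, served as an alternative. Its columns had medians of -0.13 to 0.089. Direction and scale were checked against the scanner values.

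Control spots were left out, as were outlier spots (24 to 712 per array), and no spot was saturated. Processed signals were divided by their array's 75th percentile (550.7 to 963.6) and log2 was taken. Of 43603 probes, 38220 stood well above background on 2 or more of the 24 arrays and were tested. Symbols came from the scanner files and the series tables and are those of the array design, updated by gene ID where possible, and 19824 probes had no name. The brightest probe over all arrays stood for each of 13440 genes. No coordinates or sequences were used. The number of arrays limits the precision.

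With limma 3.58.1 (R 4.3.3), lmFit estimated a mean for each group from the whole set of 24 arrays, followed by contrasts.fit and eBayes, with Benjamini-Hochberg adjustment over all probes within each of 12 comparisons. Comparisons between days averaged the doses. The methods' t-test, other scalings, filters, normexp background correction on the median signal (offset 50), array position, slide, scan day and replicate blocks, and leaving out each replicate were alternatives. The fits by scan day and the cut in the surface colonocyte sums were chosen after seeing the data. Replicate numbers did not pair the samples. Where every array of a group was not above background, a bound in place of a fold is given, from the lowest signal well above background. It bounds the fold between group means and is not a confidence limit. Named genes were the 10 members, the called genes of the wider pathway list, the 5 genes closest to PTGS2 and to HPGD, and markers moving with them. The members and lists were chosen with earlier results of these data known. The steps were tested on simulated data.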

Additional observations from a re-analysis of the deposited data

Results flagged for a closer look

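In 7 of the 89 groups of 4 animals examined over the member probes, 1 animal stood far from the other 3, where chance alone gives about 1 in 20. PTGS1 on day 4 after 6.7 Gy was lowest in replicate 4, at 1.12 against 2.20 to 2.33 in the others. PTGES2 on day 4 after 7.4 Gy was highest in replicate 4, at 0.23 against -0.19 to -0.14. PTGIS on day 7 after 7.4 Gy was lowest in replicate 1, at -7.10 against -5.58 to -5.27, all near background. PTGER4 in the controls was lowest in replicate 4, at -1.58 against -0.21 to -0.08. A second PTGER4 probe was lowest in control replicate 1, at -4.68 against -3.50 to -3.48, and so was a second PTGER2 probe, at -4.79 against -3.86 to -3.68. SLCO2A1 on day 4 after 6.7 Gy was highest in replicate 2, at -0.43 against -0.78 to -0.73.

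Among irradiated animals, PTGS2 and HPGD differed between days, tested with both doses together in limma. All controls carried the day 4 label, so the effect of irradiation itself was not compared between days. From day 4 to day 7, 2 PTGS2 probes changed by -1.32 and -1.73 and HPGD by 1.42. The mean of the third PTGS2 probe, not well above background on any day 7 array, was at least 1.77-fold lower on day 7. From day 4 to day 12, 2 of the PTGS2 probes changed by -1.53 and -1.81 and HPGD by 2.03.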

How the results depend on the processing

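Of 360 counts of called members under alternatives, 341 stayed within 1.5 times the reported count, and of 224 values of called genes, 207 kept their call, 17 lost it and 0 turned direction. The 8 comparisons with 0 called members stayed at 0 in every alternative run. On day 4 after 6.7 Gy (1 called), 0 were called with array position as a block, with position and scan day together, and within scan day 1 or 2 alone, and 2 when any probe counted. On day 4 after 7.4 Gy (2 called), 1 was called where probes had to be well above background on every array, by the methods' t-test unadjusted, with only the compared groups in the fit and within scan day 2 alone, and 0 by the methods' t-test after adjustment; leaving out each replicate gave 1 to 2. With position as a block, 3 were called there (PTGS1, PTGS2 and PTGIS, not HPGD), and with position and scan day together only 1, PTGIS, which is neither of the reported genes. From day 4 to day 7 and to day 12 (2 called each), 1 was called with probes above background on every array. With no minimum fold 4 were called in each, where 9925 of 38220 and 9358 of 38200 probes passed. To day 12, 1 was called by the methods' t-test after adjustment or with only the compared groups. Where probes had to be well above background on every array, the brightest PTGS2 probe was not tested in any comparison. Its outlier spot on replicate 2 of day 4 after 6.7 Gy counted as not above background. The probe was well above background on every array that measured it.

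PTGS2 after 7.4 Gy changed by 3.38 (adjusted p = 0.027) with position as a block, 3.85 (0.091) with position and scan day, and 2.09 (0.059) within scan day 2. After 6.7 Gy its change ran from 0.27 to 2.66 and was never called. HPGD after 7.4 Gy changed by -2.16 (0.41) with position and scan day, and had an adjusted p of 0.057 by the methods' t-test. The fall of PTGS2 to day 7 and the rise of HPGD to day 12 were called in every alternative that tested them. Within scan day 2 alone, PTGIS fell to day 7 by 1.37 (0.015) and HPGD lost its call there. Position could not be fitted as a block for days 7 and 12 against control or day 4, since position and group cannot be told apart there. For day 4 after 7.4 Gy against control, they were told apart only through the 6.7 Gy day 4 arrays, which sat in both positions. Within those arrays, position and scan day changed together. With a replicate block, PTGS2 after 7.4 Gy changed by 1.72 (0.016) and HPGD by -2.01 (0.027) and -2.25 (0.0076), and no count of called members changed. Deviations of same-numbered samples correlated at a median of 0.0071 (lowest -0.24). Those of samples from different groups on the same slide correlated at a median of 0.12, with 22 of 36 pairs over 0.1. Under spike-in scaling, on 6 probes, the median change of all genes from control reached 0.30, on day 12 after 6.7 Gy. It was 0.07 there in the reported fit. The causes were not tested. The 4 shared controls, 2 animals per group on day 12 and dim probes of PTGIS limit what could be seen.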

Other observations

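A probe described in the array design as the 3′ end of an mRNA similar to PTGS2, with no gene symbol and so outside the members, was not well above background on any control array or on any array of days 7 and 12. It was well above background on 2 of 4 arrays on day 4 after 6.7 Gy and on 2 of 4 after 7.4 Gy. Its mean was -6.59 ± 0.76 in the controls, -5.36 ± 2.20 after 6.7 Gy and -5.18 ± 1.35 after 7.4 Gy (SD, n = 4 each). Against the lowest signal that counted as well above background, its mean was at least 1.43-fold higher than in the controls after 6.7 Gy. After 7.4 Gy its mean was at least 1.62-fold higher. Neither was called (adjusted p = 0.35 and 0.22 in limma), with 95% intervals on the log2 scale of -0.42 to 2.88 and -0.24 to 3.06. Its mean was at least 1.71-fold lower on day 7 than on day 4 (adjusted p = 0.044).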
